A study of Homo sapiens with 15 samples.

Results

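Ammonium chloride was added to H1299 cells that had glucose and no glutamine, and the effect on every gene was read from RNA sequencing. H1299 is an established line of human non-small cell lung carcinoma, taken from a lymph node. All cells had first grown for 24 h in complete RPMI 1640 with 5% fetal bovine serum, were rinsed, and were then kept for 12 h in RPMI 1640 without serum. In the ammonium arm this medium held 5 mM glucose and 4 mM NH4Cl (3 libraries), and in the arm it was compared with it held 5 mM glucose alone (3 libraries). These are 6 of the 15 libraries of the series, assigned to the media by their labels. A further arm, with 4 mM glutamine and 5 mM glucose (3 libraries), is used at the end. Neither glutamine nor serum was present in the compared arms, and all of it was done in 1 cell line. The labels call the cells triplicate without saying that they came from separate cultures, so p-values measure the spread between these libraries, which may be technical.

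Ammonium is in balance with ammonia, a weak base that crosses membranes and takes up protons in acid compartments such as the lysosome. Cells release it from glutamine, and fix it again through glutamine synthetase, glutamate dehydrogenase and carbamoyl phosphate synthetases. Synthesis of cholesterol and fatty acids is switched on by the SREBP transcription factors. These are held in the endoplasmic reticulum by SCAP and the INSIG proteins, and are released by cleavage in the Golgi when INSIG lets go of SCAP. The comparison asks which transcripts respond to NH4Cl when glutamine itself is absent. The labels name no arm with another salt, so effects of ammonium and of the added chloride cannot be told apart.

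The 6 libraries held 14914127 to 16823178 counts. Without scaling between libraries, 3 counts corresponded to 0.178 to 0.201 CPM (counts of a gene per 1000000 counts of its library). This floor covers counting error only. Levels below are CPM after TMM scaling, which corrects for the makeup of each library, means are given ± SD over 3 libraries, and log2 changes are NH4Cl with glucose minus glucose alone, given with their standard error (SE). A gene was called when its edgeR quasi-likelihood p, adjusted by the Benjamini-Hochberg method over 16889 tested genes, was under 0.05. Libraries of the same medium lay close together, with a common coefficient of biological variation of 0.0221. Glucose replicate 1 stood apart by its many genes at very low counts, with 35114 genes detected against 25134 to 26550 in the other 5 libraries, although genes under the filter took only 0.284% of its counts. The keratins KRT8 and KRT18 and the mesenchymal genes VIM and CDH2 were expressed, whereas the epithelial markers EPCAM, CDH1 and KRT19 were near 0. Markers of fibroblasts summed to 1.24 to 2.09 CPM with NH4Cl and 1.24 to 3.24 CPM without it, and those of leukocytes to 2.03 to 2.43 CPM with NH4Cl and 1.7 to 2.12 CPM without it. Endothelial markers summed to 10.6 to 13.9 CPM with NH4Cl and 11.2 to 13.3 CPM without it. Of these 6 genes 1 averaged 5 CPM or more. Lung alveolar markers summed to 0.684 to 1.84 CPM with NH4Cl and 0.527 to 1.54 CPM without it.

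With NH4Cl, 4998 of the 16889 tested genes were called (29.6%), of which 2146 were higher (12.7%) and 2852 lower (16.9%). Most of the called changes were small. Each count over a gene list in this comparison is to be read beside these shares, 12.7% higher and 16.9% lower. The median absolute log2 change of the called genes was 0.214, and 3220 of them changed by less than 1.2-fold. Only 65 genes rose at least 2-fold (0.385%) and 34 fell as much (0.201%), and among the 11236 genes averaging 5 CPM or more these numbers were 37 and 2. A test against a 1.2-fold change, which asks for a change larger than that, kept 228 genes higher (1.35%) and 216 lower (1.28%). Without glucose replicate 1 the counts were 1783 higher and 2623 lower, with 89 and 40 past 2-fold. The count of 2-fold falls was less settled than the others and stood at 64 without glucose replicate 3.

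INSIG1 (chr7:155297776-155310235 of GRCh38, plus strand), whose protein holds SCAP in the endoplasmic reticulum and is itself a target of SREBP, had the largest rise among called genes of 5 CPM or more whose libraries did not overlap. Its level was 247, 248 and 235 CPM with NH4Cl, against 30.3, 29.2 and 33.3 CPM in glucose alone, a log2 change of 2.98 ± 0.036. Both groups were tight and far apart. The next rises were in SCD, the desaturase that makes oleate (2.58 ± 0.016), HMGCS1, the HMG-CoA synthase (2.56 ± 0.034), and FASN, the fatty acid synthase (2.27 ± 0.021). LSS, IDI1, MSMO1 and STARD4, all of sterol metabolism, also stood among the 12 largest, with log2 changes of 1.77 to 1.96. Outside sterol and fat metabolism that group held RUSC1-AS1, DACT1 and SLC9A3. RUSC1-AS1 (2.20 ± 0.136) is an antisense RNA that overlaps FDPS, a gene of cholesterol synthesis, and since it is unknown here whether the counting used strand, reads of the pair cannot be told apart. The same holds for MVK and SREBF1, which overlap MMAB and RAI1 on the opposite strand. DACT1, an antagonist of Wnt signalling, had 15.8, 14.2 and 13.8 CPM with NH4Cl and 4.33, 3.28 and 3.78 CPM without it (1.94 ± 0.108).

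Among called genes of at least 5 CPM whose libraries did not overlap, the falls were smaller than the rises. ARRDC4, an arrestin-domain gene induced by MondoA when sugar phosphates are plentiful, fell most of these, to 2.95, 4.77 and 3.17 CPM with NH4Cl, against 9.54, 8.66 and 8.50 CPM in glucose alone (log2 change -1.29 ± 0.143). DHRS2, a mitochondrial reductase, followed with 13.8 ± 0.849 CPM with NH4Cl and 30.7 ± 1.26 CPM without it (SD, n = 3 each; -1.15 ± 0.076). The other 10 of the 12 largest falls under these limits were under 2-fold and had log2 changes of -0.68 to -0.82. They were KLF10 and JUN, both transcription factors, RASSF1, a tumour suppressor, the secreted factors TSLP, PTX3 and CCN2, the matrix protein TNC, the phospholipase PLCB4, and the noncoding RNAs SNHG17 and ZNF582-DT. TXNIP, the best known MondoA target, was below the filter on low counts, at 0.204 ± 0.131 CPM with NH4Cl and 0.227 ± 0.106 CPM without it.

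The cholesterol pathway rose almost as a whole. Of its 22 measured genes 19 were called higher and 0 lower, against 12.7% of all genes called higher, with a median log2 change of 1.26 (all genes, -0.013). In 20 of the 22 the 3 NH4Cl libraries did not overlap the 3 glucose libraries, as in 39.9% of all genes. At the head of the pathway, ACAT2, which joins acetyl-CoA units, rose to 72.6 ± 2.40 CPM with NH4Cl, against 38.1 ± 1.38 CPM in glucose alone (SD, n = 3 each). HMGCS1, the next step, had 248, 241 and 240 CPM with NH4Cl and 39.8, 40.7 and 43.1 CPM without it. In the isoprenoid steps MVK (1.69 ± 0.071), MVD (1.72 ± 0.038), IDI1 (1.94 ± 0.037) and FDPS (1.38 ± 0.034) rose, while PMVK, the phosphomevalonate kinase between MVK and MVD, was not called (27.8 ± 0.697 CPM with NH4Cl and 25.2 ± 0.631 CPM without it, log2 change 0.14 ± 0.059, edgeR adjusted p = 0.0583). GGPS1, which draws farnesyl units away to geranylgeranyl, was also not called, with 14.0 ± 0.227 CPM with NH4Cl and 13.5 ± 0.334 CPM without it.

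After squalene the same pattern held. FDFT1, the squalene synthase, rose by 1.63 ± 0.029, the epoxidase SQLE by 1.13 ± 0.031 and the cyclase LSS by 1.96 ± 0.032 on the log2 scale. LSS had 211, 211 and 217 CPM with NH4Cl and 53.6, 55.4 and 55.2 CPM in glucose alone. Among the enzymes that turn lanosterol into cholesterol, MSMO1 (1.89 ± 0.047), DHCR7 (1.74 ± 0.041) and HSD17B7 (1.35 ± 0.101) rose by more than 2-fold. The rises of SC5D (0.61 ± 0.057), NSDHL (0.60 ± 0.057), CYP51A1 (0.58 ± 0.085), EBP (0.54 ± 0.053) and TM7SF2 (0.43 ± 0.071) were smaller. TM7SF2 and LBR encode sterol reductases that act on the same double bond, and LBR, which is also a protein of the nuclear lamina, was not called (86.4 ± 2.55 CPM with NH4Cl and 87.0 ± 2.31 CPM without it). Large changes thus occurred from HMGCS1 near the start of the pathway to DHCR7 at its end.

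**Figure D1:**
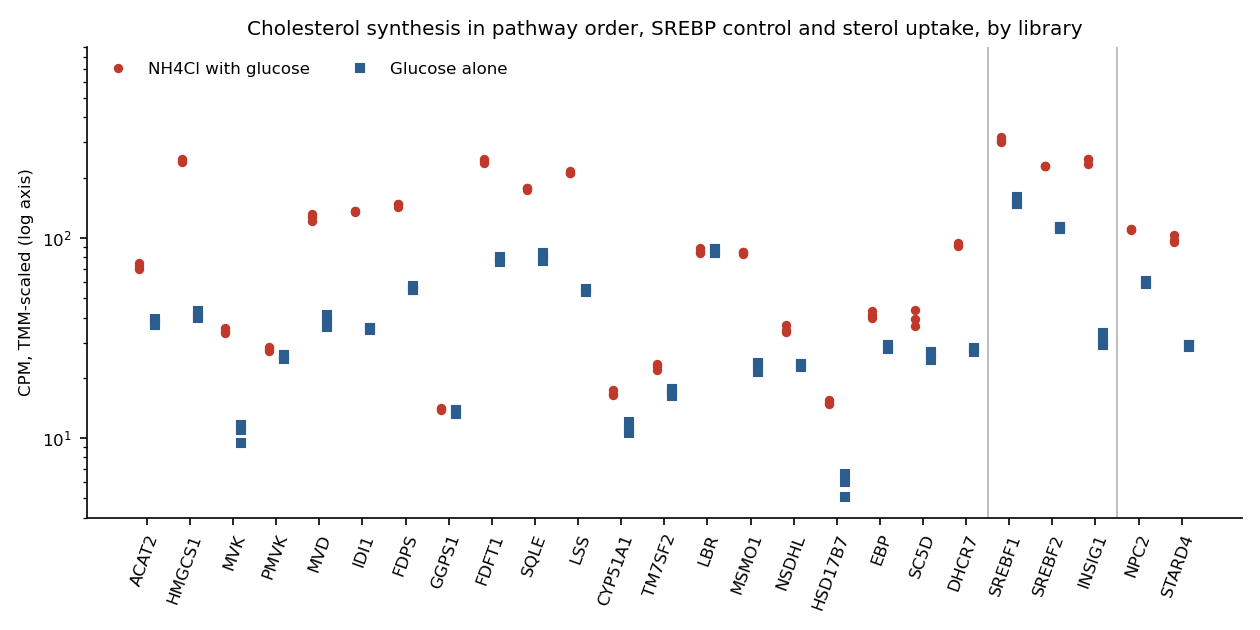
Level in CPM (log axis) of each of the 3 libraries with NH4Cl and glucose (circles, left of each pair) and the 3 with glucose alone (squares, right), for 20 cholesterol synthesis genes in pathway order, 3 genes of SREBP control and 2 of sterol uptake. Circles lie above squares in most pairs, INSIG1 is farthest apart (243 against 30.9 CPM on average), and PMVK, GGPS1 and LBR are close together.

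SREBP targets often need the factor NF-Y, which binds CCAAT, beside the SREBP site itself. Promoter sequences (250 bases before to 50 after the transcription start) were taken from RefSeq for GRCh38.p14 for 11586 of the tested genes and searched on both strands. CCAAT was found in 12 of 17 cholesterol synthesis promoters (70.6%), 7 of 12 promoters of sterol uptake genes (58.3%) and 13 of 25 of fatty acid synthesis genes (52.0%), against 36.5% of all promoters. The sterol regulatory element TCACNCCAC was in 0 of 17, 0 of 12 and 1 of 25 of them and in 1.01% of all, which says only that these letters are not in these windows. The promoters of HMGCS1 (chr5:43313363-43313662, minus strand) and LSS (chr21:46228725-46229024, minus strand), the pathway genes called with the smallest p that hold a match, are printed 5′ to 3′ with CCAAT in capitals, here in its reverse form. In HMGCS1 it begins 155 and 100 bases before the start, and in LSS 150 bases before it.
HMGCS1: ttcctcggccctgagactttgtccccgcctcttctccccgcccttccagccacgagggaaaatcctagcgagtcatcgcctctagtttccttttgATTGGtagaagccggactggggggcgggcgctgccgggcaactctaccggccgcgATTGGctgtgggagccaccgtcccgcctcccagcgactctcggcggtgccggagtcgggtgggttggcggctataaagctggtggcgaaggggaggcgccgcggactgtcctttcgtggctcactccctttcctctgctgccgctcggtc
LSS: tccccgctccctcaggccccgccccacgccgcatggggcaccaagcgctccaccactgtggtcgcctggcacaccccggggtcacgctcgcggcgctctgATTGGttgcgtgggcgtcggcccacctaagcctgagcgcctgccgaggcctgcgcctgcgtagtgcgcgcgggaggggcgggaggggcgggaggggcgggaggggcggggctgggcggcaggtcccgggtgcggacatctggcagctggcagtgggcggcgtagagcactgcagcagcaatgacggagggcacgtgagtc

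Genes that control SREBP did not move together. SREBF1 and SREBF2, which encode the factors themselves, both rose about as much. SREBF1 had 304, 303 and 319 CPM with NH4Cl and 147, 160 and 148 CPM without it (1.03 ± 0.03), and SREBF2 had 228, 230 and 228 CPM with NH4Cl against 114, 113 and 111 CPM in glucose alone (1.02 ± 0.029). INSIG1 rose, but its relative INSIG2 was not called (24.9 ± 1.68 CPM with NH4Cl and 23.0 ± 0.281 CPM without it). SCAP, the escort of SREBP (-0.08 ± 0.04), and MBTPS1, the site-1 protease (211 ± 0.781 CPM with NH4Cl and 204 ± 4.77 CPM without it), were not called either, while MBTPS2, the site-2 protease, fell by 0.16 ± 0.035. Of the ubiquitin ligases linked to INSIG or SCAP turnover, RNF139 fell by 0.20 ± 0.042, and RNF145 (-0.08 ± 0.039) was not called.

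Among 16 tested genes of sterol uptake and transport 10 rose and 0 fell (12.7% and 16.9% of all genes), with a median log2 change of 0.19. STARD4, a cytosolic carrier of cholesterol, had 103, 98.0 and 95.6 CPM with NH4Cl and 29.2, 28.5 and 29.3 CPM without it (1.77 ± 0.042), and the groups lay far apart. The partners that pass cholesterol out of the lysosome rose as well, NPC2 by 0.88 ± 0.035 and NPC1 by 0.36 ± 0.03, and so did LRP8, a lipoprotein receptor (0.48 ± 0.068). VLDLR (33.1 ± 1.61 CPM with NH4Cl and 33.1 ± 0.199 CPM without it) was not called. MYLIP, a ubiquitin ligase that degrades lipoprotein receptors (-0.20 ± 0.083, edgeR adjusted p = 0.0517), was not called but was lower without NH4Cl replicate 1 or glucose replicate 1 (edgeR adjusted p = 0.0163 and 0.0227).

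Fatty acid synthesis rose from the supply of acetyl-CoA to the desaturases. Of 28 tested genes 19 were called higher and 1 lower (12.7% and 16.9% of all genes), with a median log2 change of 0.36. Of the 19, 12 passed the test against a 1.2-fold change. In the supply of acetyl-CoA, described through genes chosen after their values were seen except ACLY, the citrate carrier SLC25A1 (0.71 ± 0.035), the citrate lyase ACLY (0.76 ± 0.027) and the acetyl-CoA synthetase ACSS2 (1.01 ± 0.051) rose. ACACA, the carboxylase that commits acetyl-CoA to fat and another gene chosen in this way, had 114, 117 and 111 CPM with NH4Cl and 75.8, 74.8 and 74.5 CPM without it (0.61 ± 0.033), whereas its mitochondrial form ACACB stayed uncalled (15.4 ± 0.243 CPM with NH4Cl and 15.3 ± 0.591 CPM without it). FASN had 845, 860 and 871 CPM with NH4Cl, against 175, 181 and 180 CPM in glucose alone. SCD had 3706, 3721 and 3647 CPM with NH4Cl, against 613, 614 and 623 CPM in glucose alone. Per kilobase of exon SCD stood at 688 CPM with NH4Cl and 115 without it, and FASN at 91.7 and 19.1. The desaturase FADS1 (0.74 ± 0.029) and the acyl-CoA synthetase ACSL3 (0.65 ± 0.027) rose too. The only member called lower was MID1IP1, an activator of acetyl-CoA carboxylase (-0.15 ± 0.04), and it is also the only one whose promoter held TCACNCCAC. Its call was lost without glucose replicate 2 (edgeR adjusted p = 0.103).

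Among 31 tested genes that build glycerolipids 12 were higher, against 12.7% of all genes, 15 were not called, and 4 were lower, a share near the 16.9% of all genes (median 0.07). LPIN1, a phosphatidate phosphatase and SREBP target, led with 306, 310 and 301 CPM with NH4Cl, against 112, 110 and 112 CPM in glucose alone (1.45 ± 0.028). PCYT2, of phosphatidylethanolamine synthesis, rose by 0.87 ± 0.05, the acyltransferase AGPAT5 by 0.39 ± 0.032, the lipid droplet protein PLIN3 by 0.23 ± 0.031 and LPCAT4 by 0.38 ± 0.068. PISD, the mitochondrial decarboxylase that makes phosphatidylethanolamine from phosphatidylserine, fell by 0.28 ± 0.072, LPIN2 by 0.12 ± 0.033 and GPAM, the first acyltransferase of triglyceride synthesis, by 0.23 ± 0.07. The calls of LPIN2 and GPAM were lost without glucose replicate 3 (edgeR adjusted p = 0.0633 and 0.0555).

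**Figure D2:**
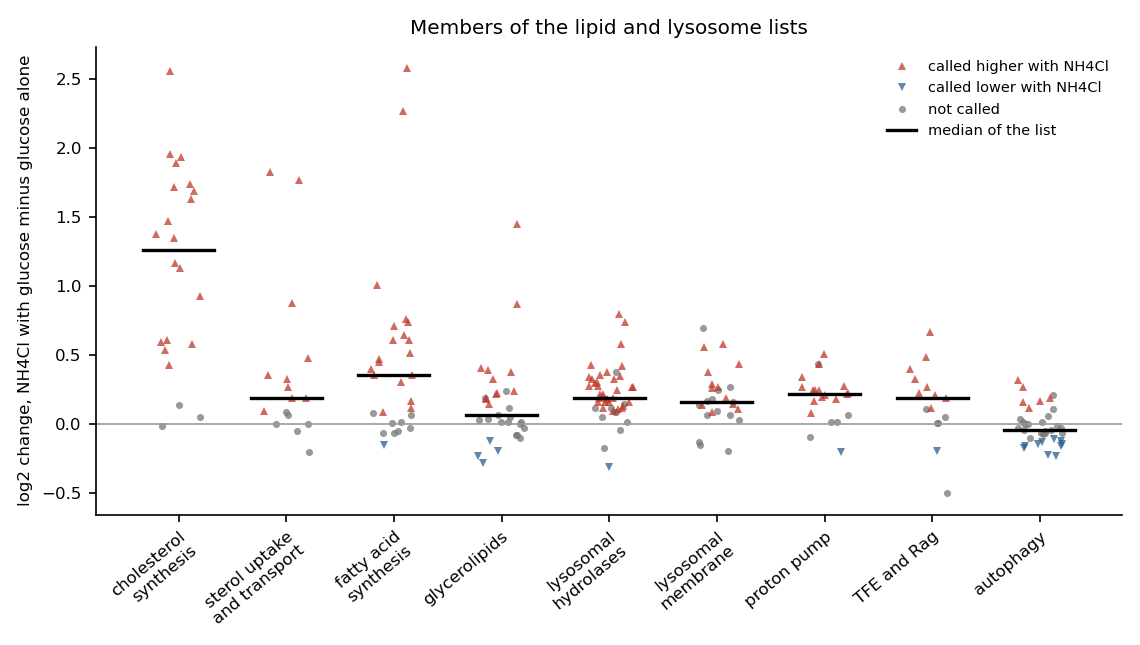
Log2 change (NH4Cl with glucose minus glucose alone) of each tested member of 9 gene lists; triangles pointing up were called higher with NH4Cl, triangles pointing down lower, circles were not called, and the bar is the list's median. Cholesterol synthesis stands highest (median 1.26), the lysosomal lists lie mostly above 0 with small changes (medians 0.16 to 0.22), and autophagy genes are spread around 0 (median -0.04).

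Lysosomal genes rose widely and slightly. The lysosome breaks down lipids, proteins and glycans with acid hydrolases, and its pH is kept low by a proton pump, the V-ATPase. Of 45 hydrolases and their activators 33 were called higher and 1 lower (background 12.7% and 16.9%), with a median log2 change of 0.19, but only 4 passed the test against a 1.2-fold change. Without glucose replicate 1, 27 were called higher. NEU1, the lysosomal sialidase, had 146, 146 and 144 CPM with NH4Cl and 80.9, 85.0 and 85.3 CPM without it (0.80 ± 0.032). LIPA, the acid lipase that frees cholesterol from lipoprotein, had 36.2, 38.1 and 36.5 CPM with NH4Cl against 22.5, 20.8 and 22.8 CPM in glucose alone (0.74 ± 0.057). GM2A, an activator of ganglioside breakdown (0.58 ± 0.056), and CTSA, a carboxypeptidase that shields NEU1 (0.33 ± 0.032), followed. In each of these genes the libraries of the media did not overlap, as in 39.9% of all genes. PPT2, a thioesterase, was the only member that fell (-0.31 ± 0.086). Well known members that were not called included ARSA (0.18 ± 0.128) and CTSZ (50.7 ± 0.722 CPM with NH4Cl and 51.9 ± 1.24 CPM without it).

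Membrane proteins of the lysosome gave 12 higher, 0 lower and 14 not called of 26, with a median of 0.16 (background 12.7% higher and 16.9% lower). CD63, a tetraspanin, had the smallest p, with 449, 447 and 473 CPM with NH4Cl, against 302, 313 and 313 CPM in glucose alone (0.56 ± 0.022). SLC17A5, the exporter of sialic acid (0.58 ± 0.047), OSTM1 (0.38 ± 0.035) with its partner CLCN7, a chloride-proton exchanger (0.27 ± 0.039), and LAMP2 (0.26 ± 0.031) rose. Sorting of hydrolases by mannose 6-phosphate gave 7 higher and 1 lower of 13 tested. Its receptors M6PR (0.32 ± 0.03) and IGF2R (0.15 ± 0.022) rose, and GNPTAB, which makes the tag, was not called (42.6 ± 2.36 CPM with NH4Cl and 41.2 ± 1.70 CPM without it).

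The proton pump itself rose in 15 of 21 tested genes and fell in 1 (12.7% and 16.9% of all genes), with a median of 0.22. Only 2 of the 21 passed the test against a 1.2-fold change. Those were the membrane subunits ATP6V0E1, with 58.4, 59.3 and 62.8 CPM with NH4Cl against 40.3, 44.4 and 42.3 CPM in glucose alone (0.51 ± 0.043), and TCIRG1 (0.44 ± 0.06). ATP6V1E1 (0.28 ± 0.031), ATP6V1G1 (0.25 ± 0.033) and the accessory subunit ATP6AP1 (0.25 ± 0.035) rose. ATP6V0A2, an alternative to TCIRG1 that serves the Golgi, fell by 0.20 ± 0.055.

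The factors TFEB, TFE3 and MITF are known to induce lysosomal genes through a site called CLEAR when the Rag GTPases no longer hold them at the lysosome. Of 15 genes of this group 9 rose and 1 fell (median 0.19), against 12.7% and 16.9% of all genes. RRAGD, a Rag GTPase and itself a TFEB target, had 54.5, 53.9 and 55.7 CPM with NH4Cl, against 34.2, 32.8 and 35.8 CPM in glucose alone (0.67 ± 0.048). FLCN, which acts on the Rags, rose by 0.49 ± 0.047, RRAGC by 0.40 ± 0.058, LAMTOR4 by 0.27 ± 0.039 and LAMTOR1 by 0.33 ± 0.051. TFE3 was the only one of the group that fell (104 ± 3.98 CPM with NH4Cl and 118 ± 1.19 CPM without it, -0.19 ± 0.032), and TFEB (1.33 ± 0.101 CPM with NH4Cl and 1.32 ± 0.143 CPM without it) and MITF (1.25 ± 0.288 CPM with NH4Cl and 1.77 ± 0.271 CPM without it) were low and not called. The letters CACGTGAC, the core of CLEAR, were in the promoters of 7 of 31 hydrolases (22.6%), 5 of 23 membrane proteins (21.7%), 3 of 15 pump subunits and 4 of 13 genes of the TFE and Rag group (30.8%), against 4.33% of all promoters and 2 of 31 autophagy promoters (6.45%). The 2 called hydrolases with the smallest p that hold it are CTSA (chr20:45891085-45891384, plus strand) and SCPEP1, a serine carboxypeptidase named for its promoter that rose by 0.34 ± 0.049 (chr17:56977881-56978180, plus strand), and capitals mark it on either strand. In CTSA it begins 44 and 25 bases before the start, and in SCPEP1 29 bases before it. The shares count tested members with a promoter sequence, whether called or not. Of the risers named above, NEU1, LIPA, GM2A, CD63, RRAGD and FLCN had no match or no promoter sequence.
CTSA: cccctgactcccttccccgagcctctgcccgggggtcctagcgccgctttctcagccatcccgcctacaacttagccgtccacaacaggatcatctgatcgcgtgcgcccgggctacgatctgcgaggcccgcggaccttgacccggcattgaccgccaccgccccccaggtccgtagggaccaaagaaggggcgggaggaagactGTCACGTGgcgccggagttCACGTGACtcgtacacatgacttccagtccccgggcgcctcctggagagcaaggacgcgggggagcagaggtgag
SCPEP1: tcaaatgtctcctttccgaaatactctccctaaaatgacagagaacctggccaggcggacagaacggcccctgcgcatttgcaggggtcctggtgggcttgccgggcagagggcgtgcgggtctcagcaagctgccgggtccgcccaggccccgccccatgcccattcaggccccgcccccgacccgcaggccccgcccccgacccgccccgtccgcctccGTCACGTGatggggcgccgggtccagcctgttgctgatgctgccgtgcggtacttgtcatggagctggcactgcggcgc

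Autophagy genes share many of these regulators. Of 35 tested, 6 rose (12.7% of all genes), 10 fell (16.9% of all genes) and 19 were not called (median -0.04), and none passed the test against a 1.2-fold change in either direction. The adaptors SQSTM1 (1436 ± 17.3 CPM with NH4Cl and 1190 ± 17.3 CPM without it, 0.27 ± 0.017) and OPTN (0.32 ± 0.031) rose. MAP1LC3B, whose protein coats autophagosomes, fell, with 731, 711 and 715 CPM with NH4Cl against 819, 857 and 858 CPM in glucose alone (-0.23 ± 0.02). RB1CC1, a part of the initiating kinase complex (-0.16 ± 0.022), ATG5 (-0.16 ± 0.036), TAX1BP1 (-0.12 ± 0.028) and ATG2B (-0.14 ± 0.04) fell too, but the call of ATG2B was lost without NH4Cl replicate 2 (edgeR adjusted p = 0.053). PIK3R4, of the lipid kinase complex, was higher (0.17 ± 0.043). Leaving out NH4Cl replicate 3 lowered the number of risers to 3.

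Transferrin gives up its iron in acid endosomes. Of 16 iron genes 9 rose and 1 fell (median 0.13), against 12.7% and 16.9% of all genes. TFRC, the transferrin receptor, rose to 168, 167 and 163 CPM with NH4Cl, against 102, 109 and 103 CPM in glucose alone (0.67 ± 0.028), and it alone passed the test against a 1.2-fold change. The ferritin chain FTL (0.22 ± 0.019), HMOX1, which frees iron from heme (0.26 ± 0.037), ACO1, an iron sensor (0.28 ± 0.045), and PCBP1, an iron chaperone (0.19 ± 0.033), rose, and the importer SLC39A14 fell by 0.28 ± 0.03.

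Genes that carry ammonium gave little signal. The Rh family channels RHAG, RHBG and RHCG were below the filter, with RHCG at 0.0806 ± 0.0943 CPM with NH4Cl and 0.0926 ± 0.114 CPM without it, so that a change in them was not detectable at this depth. The cotransporter SLC12A2 fell by 0.13 ± 0.048, a call lost without NH4Cl replicate 1 or glucose replicate 1 (edgeR adjusted p = 0.128 and 0.0948), and ATP1B1, a sodium pump subunit, was not called (-0.05 ± 0.04). In a list of exchangers of protons or bicarbonate, with related genes such as BSG and CA2, 4 rose and 4 fell of 18 tested. Of all genes 12.7% were called higher and 16.9% lower. SLC9A3, the sodium-proton exchanger known from kidney and gut, had 16.1, 15.3 and 16.1 CPM with NH4Cl and 4.33, 4.21 and 4.48 CPM without it (1.86 ± 0.116). SLC9A3-AS1, which overlaps it on the opposite strand, rose as well (65.5 ± 2.22 CPM with NH4Cl and 19.7 ± 0.772 CPM without it, 1.74 ± 0.057) and was chosen after its values were seen, and reads of the pair cannot be told apart. The Golgi exchanger SLC9A8 (-0.38 ± 0.076) and the bicarbonate transporter SLC4A7 (-0.21 ± 0.031) fell. BSG, a chaperone of lactate carriers, rose by 0.12 ± 0.019. The other members called higher, CA2 (0.34 ± 0.132) and SLC4A2 (0.08 ± 0.03), both lost their calls without NH4Cl replicate 3, glucose replicate 1 or glucose replicate 2 (edgeR adjusted p of 0.0719 to 0.161), which left 2 risers in the list, and each lost it without 1 further NH4Cl library (edgeR adjusted p = 0.133 and 0.163).

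A list of 35 tested genes of ammonia metabolism gave 7 higher, 13 lower and 15 not called. Of all genes 12.7% were higher and 16.9% lower. Beside enzymes that fix or release ammonia, the list holds carriers, aminotransferases and genes of proline synthesis. GLUL, the glutamine synthetase, had 66.9, 64.8 and 62.1 CPM with NH4Cl and 51.8, 52.5 and 53.6 CPM without it (0.30 ± 0.041). The largest rise was in GNPDA1, which releases ammonia from glucosamine 6-phosphate (138 ± 4.61 CPM with NH4Cl and 89.6 ± 1.81 CPM without it, 0.62 ± 0.032). SLC25A13, a carrier of aspartate and glutamate, rose by 0.19 ± 0.03. GLUD1, the glutamate dehydrogenase, was not called (242 ± 5.37 CPM with NH4Cl and 247 ± 2.62 CPM without it), nor were CAD, which starts pyrimidine synthesis (157, 155 and 159 CPM with NH4Cl against 151, 166 and 152 CPM in glucose alone), or CPS1, at 1.15 ± 0.231 CPM with NH4Cl and 1.48 ± 0.197 CPM without it. GOT1, the cytosolic aspartate aminotransferase, fell, with 289, 284 and 301 CPM with NH4Cl against 394, 396 and 396 CPM in glucose alone (-0.44 ± 0.024). ASNS, the asparagine synthetase (-0.42 ± 0.07), PYCR1, of proline synthesis (-0.27 ± 0.03), and the alanine aminotransferase GPT2 (-0.23 ± 0.036) fell.

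Targets of ATF4, the factor that answers amino acid shortage, were mostly lower. Of 37 tested, 24 fell (16.9% of all genes) and 4 rose, a share near the 12.7% of all genes (median -0.17), and 9 of the falls passed the test against a 1.2-fold change. SLC7A5, which carries leucine into the cell, had 1141, 1142 and 1135 CPM with NH4Cl and 1541, 1577 and 1562 CPM without it (-0.45 ± 0.018). SLC7A11, the cystine carrier (-0.47 ± 0.027), STC2 (-0.44 ± 0.029), the shared carrier chain SLC3A2 (-0.31 ± 0.02) and SESN2, a leucine sensor (-0.34 ± 0.023), fell. ATF4 itself was lower by 0.10 ± 0.02. GDF15, a stress hormone (50.3 ± 1.80 CPM with NH4Cl and 37.7 ± 1.52 CPM without it, 0.42 ± 0.052), and NUPR1, a stress-induced cofactor (10.4 ± 0.729 CPM with NH4Cl and 5.71 ± 0.464 CPM without it, 0.87 ± 0.123), went the other way, as did ATF5 (0.18 ± 0.057), whose call was lost without NH4Cl replicate 1 (edgeR adjusted p = 0.0824). DDIT3, which encodes CHOP, was not called, with 193, 186 and 199 CPM with NH4Cl and 183, 183 and 187 CPM without it (edgeR adjusted p = 0.0578), and was called higher without NH4Cl replicate 2 (edgeR adjusted p = 0.0191).

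Transfer RNA synthetases and amino acid carriers, many of them ATF4 targets, were also lower more often than higher (16.9% and 12.7% of all genes). Of 20 cytosolic synthetases 13 fell and 1 rose (median -0.10), and none passed the test against a 1.2-fold change. Those with the smallest p were IARS1 (-0.24 ± 0.018), EPRS1 (-0.22 ± 0.021), MARS1 (-0.17 ± 0.021), TARS1 (-0.16 ± 0.021) and WARS1 (-0.17 ± 0.022). HARS1 rose by 0.13 ± 0.035. Of 21 carriers 11 fell and 1 rose (median -0.15), the riser being SLC38A7, a lysosomal glutamine carrier (0.26 ± 0.056). Beside SLC7A5, SLC7A11 and SLC3A2, the carriers with the smallest p were SLC7A1, for cationic amino acids (-0.37 ± 0.027), and SLC38A1, for glutamine and other neutral ones (-0.19 ± 0.019).

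Among 26 genes of protein folding and the unfolded protein response, 9 fell and 1 rose, against 16.9% and 12.7% of all genes. HSPA5, the chaperone BiP, had 1673, 1655 and 1666 CPM with NH4Cl and 2301, 2363 and 2337 CPM without it (-0.49 ± 0.015), and it alone passed the test against a 1.2-fold change. ERN1, the sensor IRE1 (-0.35 ± 0.043), HSP90B1 (-0.18 ± 0.017), HYOU1 (-0.18 ± 0.023) and ATF6 (-0.16 ± 0.033) fell, and SDF2L1, a partner of BiP, rose (0.21 ± 0.084), a call lost without NH4Cl replicate 1, NH4Cl replicate 3 or glucose replicate 1 (edgeR adjusted p = 0.197, 0.139 and 0.696). XBP1, which IRE1 splices, was not called (76.2 ± 1.37 CPM with NH4Cl and 78.6 ± 2.50 CPM without it).

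Genes of mitosis fell as a group, with 37 of 40 called lower and 0 higher (background 16.9% lower), a median log2 change of -0.37, and 25 past the test against a 1.2-fold change. In 38 of the 40 the libraries of the media did not overlap, as in 39.9% of all genes. MKI67, the proliferation antigen, had 342, 348 and 328 CPM with NH4Cl and 491, 491 and 500 CPM without it (-0.54 ± 0.022). ECT2, which starts the cleavage furrow, had 261, 266 and 261 CPM with NH4Cl against 370, 376 and 373 CPM in glucose alone (-0.51 ± 0.024). AURKA, a kinase of the spindle poles (-0.54 ± 0.025), ANLN, a scaffold of the contractile ring (-0.49 ± 0.024), and CENPF, of the kinetochore (-0.46 ± 0.023), fell as much. CDC25B (-0.06 ± 0.025), NCAPH (-0.05 ± 0.051) and PRC1, which had only 1.82 ± 0.659 CPM with NH4Cl and 2.00 ± 0.281 CPM without it, were not called.

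DNA replication genes, which act earlier in the cycle, gave as many rises as falls to within 1 gene. Of 31 tested, 6 rose, 7 fell and 18 were not called (median -0.01), where 12.7% of all genes were called higher and 16.9% lower, and none passed the test against a 1.2-fold change. The largest changes were in CDT1, a licensing factor (188 ± 6.50 CPM with NH4Cl and 161 ± 1.91 CPM without it, 0.23 ± 0.027), and CDC45, a part of the helicase (-0.23 ± 0.051). The clamp loader subunit RFC1 fell by 0.15 ± 0.025, ORC2, of the origin recognition complex, by 0.17 ± 0.038, and POLA1, of the primase polymerase, by 0.14 ± 0.036. The helicase subunits MCM3 (-0.06 ± 0.034) and MCM5 (-0.06 ± 0.033) and the loader CDC6 (-0.02 ± 0.062) were not called. The number of risers was 2 without glucose replicate 1 or NH4Cl replicate 3, and the number of falls 4 without NH4Cl replicate 2. The motif TTTGAA, known as CHR and bound in promoters of mitotic genes, was in 24 of 35 mitosis promoters (68.6%), in 0 of 26 replication promoters and in 9.58% of all. The mitosis promoters printed are those of MKI67 (chr10:128126374-128126673, minus strand) and ECT2 (chr3:172750476-172750775, plus strand), with TTTGAA in capitals. It begins 47 and 29 bases before the start in MKI67, and 115 bases before and 34 after it in ECT2.
MKI67: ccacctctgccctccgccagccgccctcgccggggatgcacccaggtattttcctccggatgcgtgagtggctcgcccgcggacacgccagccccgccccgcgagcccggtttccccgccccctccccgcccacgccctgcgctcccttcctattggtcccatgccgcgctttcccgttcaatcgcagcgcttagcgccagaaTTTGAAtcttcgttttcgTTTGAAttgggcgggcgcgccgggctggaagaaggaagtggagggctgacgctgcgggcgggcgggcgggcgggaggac
ECT2: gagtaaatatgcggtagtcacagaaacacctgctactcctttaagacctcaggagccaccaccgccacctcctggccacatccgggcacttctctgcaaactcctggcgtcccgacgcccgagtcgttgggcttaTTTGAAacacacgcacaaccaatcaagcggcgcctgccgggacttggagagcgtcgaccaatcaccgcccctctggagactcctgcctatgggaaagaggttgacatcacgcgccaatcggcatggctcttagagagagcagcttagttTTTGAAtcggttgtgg

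Regulators of the step from G1 into S phase were lower in 15 and higher in 4 of 26 (median -0.13). Among all genes 16.9% were lower, and the 4 higher were a share near the 12.7% of all genes. MYC, with 221, 227 and 222 CPM with NH4Cl and 309, 307 and 320 CPM without it (-0.48 ± 0.024), CDK6 (214 ± 7.81 CPM with NH4Cl and 302 ± 0.888 CPM without it, -0.50 ± 0.025) and E2F7, a repressor of S-phase genes (-0.55 ± 0.034), fell most. CCND1 fell by 0.16 ± 0.025 and E2F8 by 0.41 ± 0.073. The inhibitors CDKN2B (62.2 ± 0.841 CPM with NH4Cl and 46.0 ± 0.991 CPM without it, 0.44 ± 0.043) and CDKN1A (0.19 ± 0.039) rose, and so did CDK4 (0.16 ± 0.032).

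Immediate early genes, which growth factor signals switch on within minutes, fell in 17 of 23 and rose in 2 (median -0.30). The shares of all genes were 16.9% lower and 12.7% higher. JUN had 66.8, 63.1 and 67.5 CPM with NH4Cl and 110, 110 and 106 CPM without it (-0.73 ± 0.03), and EGR1 had 128, 121 and 125 CPM with NH4Cl against 196, 199 and 193 CPM in glucose alone (-0.65 ± 0.028). FOSL1 (-0.30 ± 0.021), the signal-induced PHLDA1 (-0.31 ± 0.022) and the ERK phosphatase DUSP6 (-0.30 ± 0.029) fell. JUND, a relative of JUN, rose (108 ± 2.90 CPM with NH4Cl and 79.4 ± 3.63 CPM without it, 0.45 ± 0.034), as did SPRY2, a brake on receptor signalling (0.14 ± 0.042), whose call was lost without NH4Cl replicate 3 (edgeR adjusted p = 0.0541).

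Transcripts of ribosome biogenesis and of ribosomal proteins moved in opposite directions, in small steps. Of 30 genes of ribosome biogenesis 21 fell and 1 rose (median -0.12), led by DDX21, an RNA helicase (407 ± 5.78 CPM with NH4Cl and 503 ± 7.83 CPM without it, -0.30 ± 0.021), NOP58 (-0.35 ± 0.027), the initiation factor RRN3 of RNA polymerase I (-0.37 ± 0.04), DKC1 (-0.23 ± 0.026) and NOLC1 (-0.22 ± 0.026), and the riser was NPM1 (0.11 ± 0.014). Cytosolic ribosomal protein genes rose in 65 of 85 and fell in 1 (12.7% and 16.9% of all genes), with a median of 0.09. Among them 0 passed the test against a 1.2-fold change. RPS20 (0.15 ± 0.016), RPL41 (0.15 ± 0.017), RPL31 (0.17 ± 0.02), RPL24 (0.17 ± 0.021) and RPS14 (0.13 ± 0.017) had the smallest p, and the member that fell was RPL7L1, which is named for its likeness to a ribosomal protein (-0.10 ± 0.024). These genes have many pseudogenes that could share reads, and the treatment of such reads in the counting is unknown here. SR splicing factors and their relatives fell in 8 of 13 (16.9% of all genes) and rose in 2, a share near the 12.7% of all genes. SRSF3 (-0.44 ± 0.021), TRA2B (-0.41 ± 0.025), SRSF7 (-0.49 ± 0.031), SRSF1 (-0.30 ± 0.025) and TRA2A (-0.28 ± 0.034) were lower. SRSF5 (0.28 ± 0.027) and SRSF6 (0.11 ± 0.029) were higher.

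Transcripts of the mitochondrial chromosome took 1.06% ± 0.0104 of the counts with NH4Cl and 0.856% ± 0.00988 without it (SD, n = 3 each). Of their 13 protein-coding genes 12 rose (median 0.26), with the smallest p for MT-CO3 (0.32 ± 0.021), MT-CO2 (0.27 ± 0.021), MT-ATP6 (0.26 ± 0.022), MT-ND1 (0.24 ± 0.02) and MT-ND2 (0.24 ± 0.021). MT-CO1, named after its values were seen, changed most (2175 ± 20.6 CPM with NH4Cl and 1674 ± 42.9 CPM without it, 0.38 ± 0.019), and MT-ND3 was not called (0.21 ± 0.076, edgeR adjusted p = 0.0681), although it was without NH4Cl replicate 2, glucose replicate 2 or glucose replicate 3 (edgeR adjusted p = 0.0369, 0.018 and 0.027). Nuclear genes of the respiratory chain rose in 39 of 81 and fell in 2 (median 0.12), against 12.7% and 16.9% of all genes. NDUFS5 (0.35 ± 0.038), COX7C (0.27 ± 0.03), UQCRB (0.23 ± 0.027), COX6B1 (0.22 ± 0.026) and COX6C (0.24 ± 0.032) rose, and CYCS, cytochrome c, fell (-0.23 ± 0.027).

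**Figure D3:**
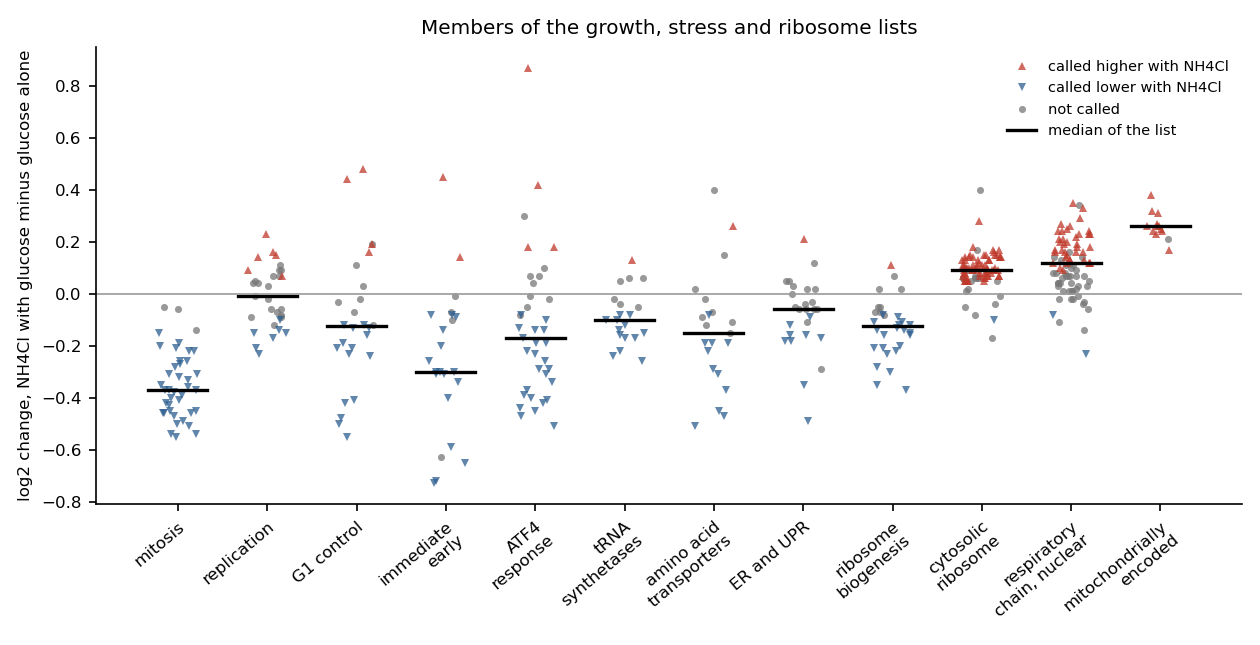
Log2 change (NH4Cl with glucose minus glucose alone) of each tested member of 12 gene lists, with the same symbols as in the plot of lipid and lysosome lists. Mitosis genes lie below 0 (median -0.37), replication genes around it (median -0.01), ATF4 targets mostly below it (median -0.17), and ribosomal protein, respiratory chain and mitochondrially encoded genes mostly above it (medians 0.09, 0.12 and 0.26).

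Gene length moved with the calls. When the tested genes were divided into 5 groups of equal size by summed exon length, in order from short to long, the share called lower with NH4Cl went up with length, at 4.74%, 10.6%, 16.9%, 22% and 30.3%, and the share called higher was 9.63%, 14.1%, 15.5%, 13.9% and 10.5%. The median log2 change was 0.03 in the group of the shortest genes and -0.06 in that of the longest. Median exon length was 4331 bases over all genes, 3002 for cytosolic ribosomal protein genes, 2326 for nuclear respiratory chain genes and 784 for mitochondrially encoded genes, whereas it was 4325 for cholesterol synthesis, 4479 for hydrolases, 4136 for mitosis and 4309 for replication. The part of length in the results was not tested.

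**Figure D4:**
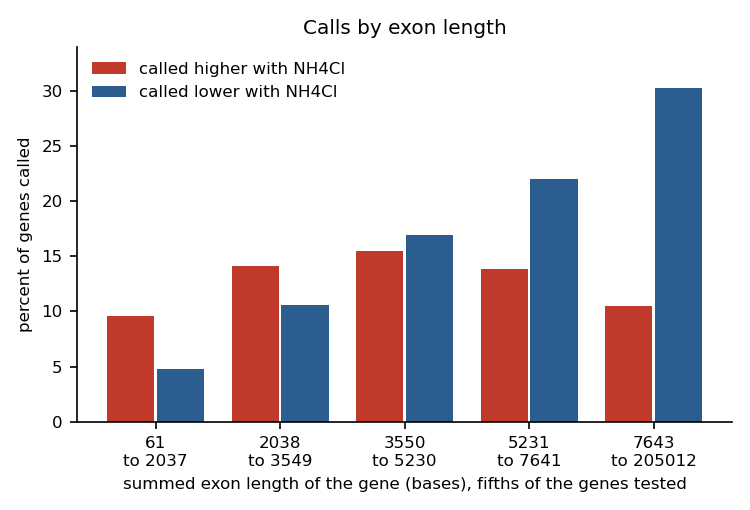
Percent of the tested genes called higher (left bar) and lower (right bar) with NH4Cl, in 5 groups of equal size by summed exon length in bases. The share called lower increases from 4.74% among the shortest genes to 30.3% among the longest, while the share called higher stays between 9.63% and 15.5%.

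Set against 4 mM glutamine in the same glucose medium, NH4Cl left many of these genes at another level. There 5276 genes were higher with NH4Cl (31.2%) and 5642 lower (33.4%). The NH4Cl libraries enter both comparisons, so the values are given side by side, and every difference given here passed the test at an adjusted p of 0.05. SCD was at 3691 ± 38.8 CPM with NH4Cl and 4008 ± 20.7 CPM with glutamine (log2 difference -0.12, NH4Cl minus glutamine). INSIG1 had 243 ± 7.39 CPM with NH4Cl and 323 ± 6.42 CPM with glutamine (-0.41), and SREBF2 was higher with NH4Cl, at 229 ± 1.13 CPM with NH4Cl and 214 ± 6.94 CPM with glutamine (0.10). Other genes of the pathway lay well below their level with glutamine, such as FASN (859 ± 13.1 CPM with NH4Cl and 2055 ± 69.0 CPM with glutamine, -1.26) and ACAT2 (-1.30). TFRC had 166 ± 2.53 CPM with NH4Cl and 416 ± 12.3 CPM with glutamine (-1.33).

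SLC9A3, NPC1 and FLCN were higher with NH4Cl than with glutamine (log2 differences 3.65, 0.90 and 1.08). NEU1 also lay higher (1.22), whereas LIPA was lower (-0.74). For ATF4 targets the small falls described above stood beside large differences from glutamine medium, with SLC7A5 at 1139 ± 3.69 CPM with NH4Cl, 235 ± 11.0 CPM with glutamine and 1560 ± 17.7 CPM in glucose alone. DDIT3 had 193 ± 6.53 CPM with NH4Cl, 11.1 ± 0.951 CPM with glutamine and 184 ± 2.20 CPM in glucose alone. MKI67 was lower with NH4Cl (339 ± 10.2 CPM) than with glutamine (475 ± 5.82 CPM) or in glucose alone (494 ± 5.23 CPM). Counted over the lists, 20 of 22 cholesterol synthesis genes and 29 of 31 replication genes were lower with NH4Cl than with glutamine, and so were 33 of 40 mitosis genes, against 33.4% of all genes. Of the ATF4 targets 36 of 37 were higher with NH4Cl than with glutamine, and of the hydrolases 21 of 45, against 31.2% of all genes. Another 10 hydrolases were lower, and the median log2 difference of the hydrolases was 0.07. The median log2 difference of the replication genes was -0.93. MCM3 stood at 84.7 ± 1.39 CPM with NH4Cl, 231 ± 5.58 CPM with glutamine and 88.2 ± 1.77 CPM in glucose alone (-1.45). CDT1 lay nearer to its level with glutamine than the median gene (-0.12). It stood at 188 ± 6.50 CPM with NH4Cl, 204 ± 5.70 CPM with glutamine and 161 ± 1.91 CPM in glucose alone.

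**Figure D5:**
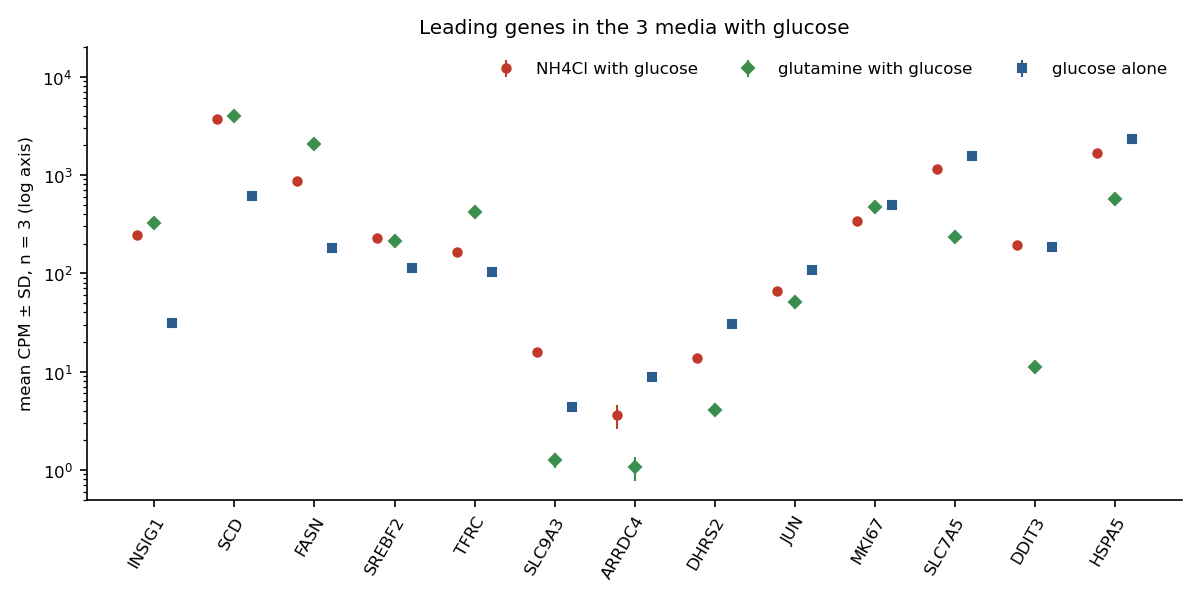
Mean level in CPM ± SD (log axis, n = 3) of 13 genes with NH4Cl and glucose (circles), glutamine and glucose (diamonds), and glucose alone (squares). SCD and SREBF2 with NH4Cl lie close to their level with glutamine, FASN and TFRC lie between the other media, SLC9A3 is highest with NH4Cl, and DDIT3 and SLC7A5 with NH4Cl lie nearer to glucose alone than to glutamine.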

How the data were processed

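Poly(A) RNA was sequenced from libraries made with a stranded kit, per the labels' protocols. The authors deposited whole-number read counts per gene, not normalized, in a table of 15 libraries. Per the submitters' processing notes the tools included HISAT2 2.1.0 and featureCounts from Subread 1.5.1 on GRCh38.p12. Whether strand was used in counting, and how reads with several positions were treated, is not given in the sources used. Gene positions and names are those of GENCODE 29 on GRCh38.

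The counts were tested with edgeR 4.0.16 in R 4.3.3. Genes were kept by filterByExpr, scaled by TMM, and fitted for all 15 libraries of 5 media in a robust quasi-likelihood model with 10 residual degrees of freedom. p-values were adjusted by the Benjamini-Hochberg method over all 16889 genes tested, and the SE is the log2 change divided by the square root of the F statistic. A second test asked for more than a 1.2-fold change. DESeq2 1.42.0 was an alternative, and others changed the scaling, the filter, the libraries fitted and the replicate block. The model was also run on counts simulated from its own fitted spread, which cannot show whether the calls in these libraries are sound. Same-numbered libraries of the compared media did not deviate together (r from -0.033 to 0.068 over 3 pairs), so the numbers were not taken as pairs. No 2 libraries of a medium agreed within sampling noise (chi-square per degree of freedom 1.223 to 2.358).

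Named genes were the 12 largest rises and 12 largest falls among called genes of at least 5 CPM whose libraries did not overlap, all genes of cholesterol synthesis and SREBP control, in each other list the called members with the smallest p (at most 5 in the direction with more calls, at most 3 in the opposite direction), members not called, and a panel of 25 genes. The media compared, the gene lists and the rule were chosen with earlier results of these data known. Some genes that meet the rule are not reported here, though counts over lists include them.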

Additional observations from a re-analysis of the deposited data

How the results depend on the processing

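No gene named and called in the text changed direction while called under any alternative run. Against a 1.2-fold change, 228 genes were higher and 216 lower, 8 of them at least 2-fold lower, and against glutamine medium 3045 and 3371, with 8 hydrolases higher and 15 mitosis genes lower there. In that test members called higher numbered 5 (sterol uptake), 12 (fatty acid synthesis), 3 (glycerolipids), 4 (hydrolases), 4 (lysosomal membrane), 0 (mannose 6-phosphate sorting), 2 (proton pump), 2 (TFE and Rag), 0 (autophagy), 1 (iron), 1 (proton and bicarbonate exchange), 1 (ammonia metabolism), 2 (ATF4 targets), 0 (replication), 0 (cytosolic ribosomal proteins), 0 (nuclear respiratory chain), 1 (mitochondrially encoded), 1 (interferon), 2 (glycolysis) and 1 (BCL2 family). Members called lower numbered 0 (glycerolipids, autophagy, exchange, synthetases, replication and BCL2 family), 1 (ammonia metabolism), 9 (ATF4 targets), 4 (amino acid carriers), 1 (unfolded protein response), 4 (immediate early), 3 (G1 control), 2 (ribosome biogenesis), 3 (splicing), 1 (NF-kB) and 4 (SNHG hosts).

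Without the low-count filter 47144 genes were tested and 1834 were lower, 78 of them 2-fold, with members lower at 2 (glycerolipids), 4 (autophagy), 8 (synthetases), 5 (unfolded protein response), 3 (replication), 12 (ribosome biogenesis) and 2 (BCL2 family). Of the exchange list 2 members were higher. With at least 1 CPM in 3 libraries, or with the compared media fitted alone, 17 genes were 2-fold lower, and the fit of the compared media alone had 7 ATF4 targets higher. DESeq2's test gave 42 and 5 genes past 2-fold; the cause was not tested.

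Leaving out 1 library gave 1777 to 1964 genes higher and 2418 to 2623 lower, 67 to 89 and 38 to 64 past 2-fold, and 4955 to 5044 and 5353 to 5460 against glutamine medium. The ranges of members were 2 to 4 (glycerolipids lower), 3 to 5 (autophagy higher), 2 to 4 (exchange higher), and 2 to 7 and 4 to 8 (replication higher and lower). With the replicate block 2133 genes were higher and 2820 lower, 66 and 34 past 2-fold, and no list count moved by over 1.5 times. The median log2 change of all genes was -0.013 with TMM, -0.005 with DESeq2 size factors and -0.002 with library totals alone. It was 0.004 with the compared media fitted alone. In that fit 49.6% of the called genes were higher, against 42.9% in the main fit, so the excess of falls depended on this choice. Depth limits low genes: 28 of the 65 rises and 32 of the 34 falls past 2-fold were of genes under 5 CPM.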

Other observations

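Genes of glycolysis and of inflammation, in lists beyond those described above, moved in small steps. The shares of all genes were 12.7% higher and 16.9% lower. Of 19 glycolytic genes 9 were called higher with NH4Cl and 1 lower, with the glucose carrier SLC2A3 (159 ± 3.78 CPM with NH4Cl and 126 ± 1.19 CPM without it, log2 change 0.34 ± 0.03) and the enolase ENO2 (0.61 ± 0.054) higher and the hexokinase HK2 lower (-0.30 ± 0.034). Interferon-induced genes were higher in 9 of 23 and lower in 0, among them B2M, the light chain of class I histocompatibility antigens (0.23 ± 0.027), STAT2 (0.30 ± 0.048) and OAS3 (0.42 ± 0.077). Of 14 genes of the NF-kB list, which holds its subunits and inhibitors beside targets, 9 were lower and 1 higher. Those lower included the subunits NFKB1 (-0.20 ± 0.035), NFKB2 (-0.13 ± 0.028), RELA (-0.13 ± 0.033) and RELB (-0.20 ± 0.032). BIRC3, an inhibitor of cell death, was lower (64.6 ± 1.96 CPM with NH4Cl and 97.7 ± 4.08 CPM without it, -0.60 ± 0.035), as were the chemokine CXCL2 (-0.30 ± 0.026) and NFKBIA (-0.45 ± 0.078), while the adhesion molecule ICAM1 was higher (0.38 ± 0.05).

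In the BCL2 family and its partners 3 of 18 genes were higher and 4 lower, where 12.7% of all genes were higher and 16.9% lower. BMF, a pro-death member, had 18.9, 17.4 and 19.9 CPM with NH4Cl and 6.64, 6.09 and 5.43 CPM without it (1.62 ± 0.098; reads of BMF and of BMF-AS1 on the opposite strand cannot be told apart), and the protective MCL1 was lower (-0.24 ± 0.021). Host genes of small nucleolar RNAs were lower in 9 of 15 and higher in 1. SNHG17 (-0.77 ± 0.047), SNHG12 (-0.57 ± 0.06), SNHG15 (-0.54 ± 0.058) and SNHG1 (-0.38 ± 0.025) were among those lower, and SNHG6 was the riser (0.16 ± 0.031).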
